A study of Capra hircus with 9 samples.

Results

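The miRNAs described here are the products of the goat miR-199 and miR-214 hairpins, taken as every row of the count table whose name starts with chi-miR-199a, chi-miR-199b, chi-miR-199c or chi-miR-214, both arms included. The rule found 8 of the 1359 rows, all 8 passed the filter on low counts, and 696 rows passed it in all. The libraries came from whole mammary gland tissue of Laoshan dairy goats aged about 4 years and of parity 3, all kept on the same farm, with 3 goats in each of 3 stages and 1 small RNA library from each goat. LL goats were sampled in late lactation (240 days postpartum), DP goats while dry (300 days postpartum) and LG goats in late gestation (140 days after mating). No goat received a treatment, and the comparisons address how miRNA levels of the gland differ between stages. The 9 libraries held between 13672653 and 34378995 counts, and the LL libraries (16451436 to 24616668), the DP libraries (13672653 to 23392916) and the LG libraries (21301913 to 34378995) overlapped in depth only in part. A single abundant miRNA, chi-miR-148a-3p, held 53.6% ± 5.51 (SD, n = 3) of the counts in LL, 9.61% ± 1.07 in DP and 42.5% ± 2.74 in LG, so levels are given as CPM (counts relative to the library total) scaled by the TMM method, which corrects for such differences in library composition.

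A miRNA hairpin is cut into a 5p and a 3p arm, and the arm that is loaded into the silencing complex represses mRNAs that pair with its seed. miR-199a and miR-214 are products of a long non-coding transcript that runs opposite to a dynamin gene, and they are best known from fibroblasts and other mesenchymal cells, where they have been studied in connection with extracellular matrix, fibrosis and growth factor signalling. miR-199a-5p is known as a repressor of caveolin 1 in lung fibroblasts. When a mammary gland dries off, its milk-producing epithelium regresses and stroma fills the space.

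In the goat genome (ARS1.2), MIR214 lies at chr16:38128641-38128752 (112 bp) and MIR199A at chr16:38134432-38134541 (110 bp), with 5679 bp between them. Both lie within the bounds of the protein-coding gene DNM3 (dynamin 3; chr16:37786098-38414194). MIR199B lies on another chromosome, at chr11:98397745-98397841 (97 bp), within the bounds of DNM1 (dynamin 1; chr11:98364789-98408086). The annotation used gives the bounds of each gene, so exon or intron was not assigned. chi-mir-199c was named only.

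The 8 rows were not 8 separate measurements. The counts of chi-miR-199c-3p and chi-miR-199b-3p were equal in all 9 libraries, and so were those of chi-miR-199b-5p and chi-miR-199c-5p, which left 6 rows with counts of their own. The counts of chi-miR-199b-3p and of chi-miR-199a-3p also differed by no more than 0.123% in any library, or by 40 to 643 counts. The 3p products of the miR-199 hairpins therefore could not be told apart in these counts, and their levels are uncertain as those of a single hairpin. In what follows, the 3p rows are counted once as miR-199-3p (values of chi-miR-199a-3p), the equal 5p rows once as miR-199b/c-5p, and together with chi-miR-199a-5p, chi-miR-214-3p and chi-miR-214-5p they make 5 distinct signals. Depth did not limit them, since the least abundant, chi-miR-214-5p, had between 207 and 2466 counts per library, and miR-199-3p had between 43651 and 523774.

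All 5 signals were highest in the dry period. By read count, miR-199-3p was the most abundant of them. Its level was 3426, 4946 and 7452 CPM in the LL goats, 13822, 22699 and 22840 CPM in the DP goats, and 3021, 3294 and 3591 CPM in the LG goats. Each DP goat exceeded each goat of the other stages, and the LL goats, spread over a 2.18-fold range, overlapped the LG goats. With 19787 ± 5166 CPM (SD, n = 3), it ranked 12th of the 696 tested miRNAs in DP, against 22nd in LL (5274 ± 2033 CPM) and 21st in LG (3302 ± 285 CPM).

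chi-miR-199a-5p, the opposite arm, had 1364, 1943 and 2890 CPM in LL, 3061, 3569 and 6538 CPM in DP, and 1309, 1395 and 1295 CPM in LG. The DP goats were the highest here too, but only just, as the lowest DP goat was 1.06 times the highest LL goat. The 3 LG goats lay within a 1.08-fold range. miR-199b/c-5p, which shares its seed with chi-miR-199a-5p, had 1418, 1565 and 2022 CPM in LL, 4961, 4522 and 5848 CPM in DP, and 1647, 1748 and 1552 CPM in LG. Its lowest DP goat was 2.24 times its highest LL goat, and the LL and LG goats were interleaved.

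chi-miR-214-3p, the more abundant arm of the clustered hairpin, had 41.8, 61.8 and 96.7 CPM in LL, 351, 526 and 476 CPM in DP, and 54.2, 71.7 and 75.0 CPM in LG. Its groups lay farthest apart among the 5 signals, since the lowest DP goat was 3.63 times the highest LL goat and 4.68 times the highest LG goat. chi-miR-214-5p had 16.2, 21.6 and 42.4 CPM in LL, 47.8, 98.8 and 108 CPM in DP, and 17.6, 19.7 and 22.1 CPM in LG. The lowest DP goat was 1.13 times the highest LL goat, so that the margin to LL was narrow, as for chi-miR-199a-5p.

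In LL and in DP, the same goats tended to be low or high for several signals. LL replicate 1 was the lowest and LL replicate 3 the highest LL library for all 5 signals. With TMM, DP replicate 1 was the lowest DP library for 4 of them, the exception being miR-199b/c-5p, which was lowest in DP replicate 2. By library size only, chi-miR-199a-5p was also lowest in DP replicate 2 (3319 CPM, against 3566 CPM in replicate 1). Under TMM, LG replicate 3 was the highest LG library for miR-199-3p and both arms of miR-214. It was the lowest for both 5p signals of miR-199. By library size only, it was the highest LG library for chi-miR-199a-5p (1662.5 CPM), and replicate 1 was lowest for miR-199b/c-5p (1888 CPM). Under TMM, the coefficient of variation was 18.9% to 51.7% in LL, 13.2% to 42.8% in DP and 4.07% to 16.7% in LG. With this scaling, miR-199b/c-5p varied least of the 5 signals in both LL and DP. As an unscaled share of all counts in DP, chi-miR-214-3p (0.0462% ± 0.00455) varied less relative to its mean than miR-199b/c-5p (0.532% ± 0.0971). As a share of all counts, without scaling, the 5 signals together held 0.731% ± 0.242 of a library in LL (0.467% to 0.941%), 3.06% ± 0.548 in DP (2.59% to 3.66%) and 0.769% ± 0.0731 in LG (0.693% to 0.839%). With chi-miR-148a-3p taken out of the total, these means were 1.56%, 3.38% and 1.34%, so that the distance of DP from the other stages was smaller.

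**Figure D1:**
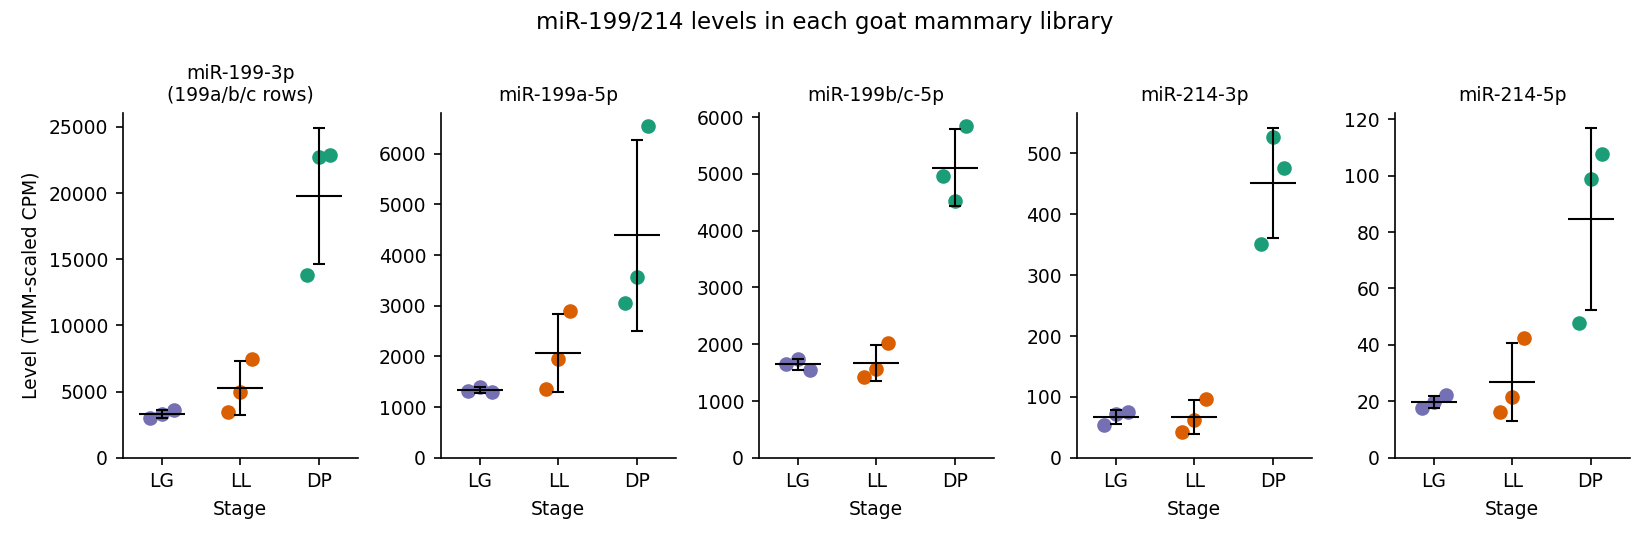
Levels of the 5 distinct miR-199 and miR-214 signals (TMM-scaled CPM, linear axes from 0, a separate range in each panel) in each library; points are goats, and the black bars give the mean and SD of the 3 goats of each stage (LG, LL and DP). With this scaling, the 3 DP points lie above the other 6 in each panel, with a narrow margin to the highest LL goat for miR-199a-5p and miR-214-5p.

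In DP vs. LL, all 5 signals were DE-miRNAs with higher levels in DP (edgeR's quasi-likelihood test over 696 miRNAs, adjusted p under 0.05 and absolute log2 fold change above 1), where 15.1% of the tested miRNAs were called higher and 11.6% lower. The DP and LL goats also did not overlap for any of the 5, against 21.0% of the tested miRNAs without overlap and higher in DP. chi-miR-214-3p rose most, 6.75-fold (log2 fold change 2.76, SE 0.34, adjusted p = 0.000336), the 8th largest rise of the 696 tested miRNAs and the 5th of the 368 known ones. miR-199-3p rose 3.75-fold (log2 fold change 1.91, SE 0.31, adjusted p = 0.00129) and miR-199b/c-5p rose 3.06-fold (1.62, SE 0.21, adjusted p = 0.000386). chi-miR-214-5p rose 3.16-fold (1.66, SE 0.41, adjusted p = 0.0121) and chi-miR-199a-5p 2.12-fold (1.09, SE 0.33, adjusted p = 0.0318). The 5 signals had a median log2 fold change of 1.66, against 0.12 over all tested miRNAs.

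The calls of the last pair were the least firm. Without LL replicate 1 the adjusted p was 0.119 for chi-miR-199a-5p and 0.0534 for chi-miR-214-5p, and without LL replicate 2 it was 0.108 and 0.0566, so that the count of called signals fell from 5 to 3 in either case, while the count over all miRNAs fell from 186 to 124 and 128. The log2 fold change of chi-miR-199a-5p was 0.66 without DP replicate 3 (adjusted p = 0.102), and with only the LL and DP libraries in the fit it was 0.98 (adjusted p = 0.0824).

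In DP vs. LG, which uses the same DP libraries, all 5 signals were again DE-miRNAs with higher levels in DP, with 21.6% of the tested miRNAs called higher and 9.91% lower. The goats did not overlap for any of the 5, against 27.7% of the tested miRNAs without overlap and higher in DP. chi-miR-214-3p rose 6.74-fold (log2 fold change 2.75, SE 0.34, adjusted p = 0.000242), the 15th largest rise of the 696. miR-199-3p rose 5.99-fold (2.58, SE 0.31, adjusted p = 0.000226), and chi-miR-214-5p rose 4.28-fold (2.10, SE 0.42, adjusted p = 0.0032). chi-miR-199a-5p rose 3.29-fold (1.72, SE 0.34, adjusted p = 0.00298) and miR-199b/c-5p 3.10-fold (1.63, SE 0.21, adjusted p = 0.000336). The median over the 5 signals was 2.10, against 0.18 over all tested miRNAs. The count stayed at 5 whichever library was left out.

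In LL vs. LG, none of the 5 signals was a DE-miRNA by edgeR (0 of 5), while 12.8% of the tested miRNAs were called. The edgeR p before adjustment was under 0.05 for 1 of the 5, miR-199-3p (log2 fold change 0.68, SE 0.30, unadjusted p = 0.0449, adjusted p = 0.144), and DESeq2 called 0 of 5 as well. For chi-miR-199a-5p the log2 fold change was 0.63 (SE 0.33, edgeR adjusted p = 0.215), and for chi-miR-214-5p it was 0.44 (SE 0.40, adjusted p = 0.524). miR-199b/c-5p (0.02, SE 0.21, adjusted p = 0.964) and chi-miR-214-3p (−0.00, SE 0.32, adjusted p = 0.995) lay near 0. Relative to the median of all miRNAs in the same setting, miR-199b/c-5p was at −0.19 to −0.15 over 12 settings. Under TMM, the LL and LG goats overlapped for all 5 signals, where 48.4% of the tested miRNAs did not overlap between stages. By library size only, miR-199b/c-5p was lower in all LL goats (1056 to 1522 CPM) than in all LG goats (1888 to 2078 CPM). It was also lower in LL with chi-miR-148a-3p left out as well, a setting chosen after the data were seen. There, the LL goats had 2602 to 3243 CPM and the LG goats 3288 to 3751 CPM. The other 4 overlapped in both of these scalings. The 48.4% holds for TMM, and no such share is given for the other scalings.

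**Figure D2:**
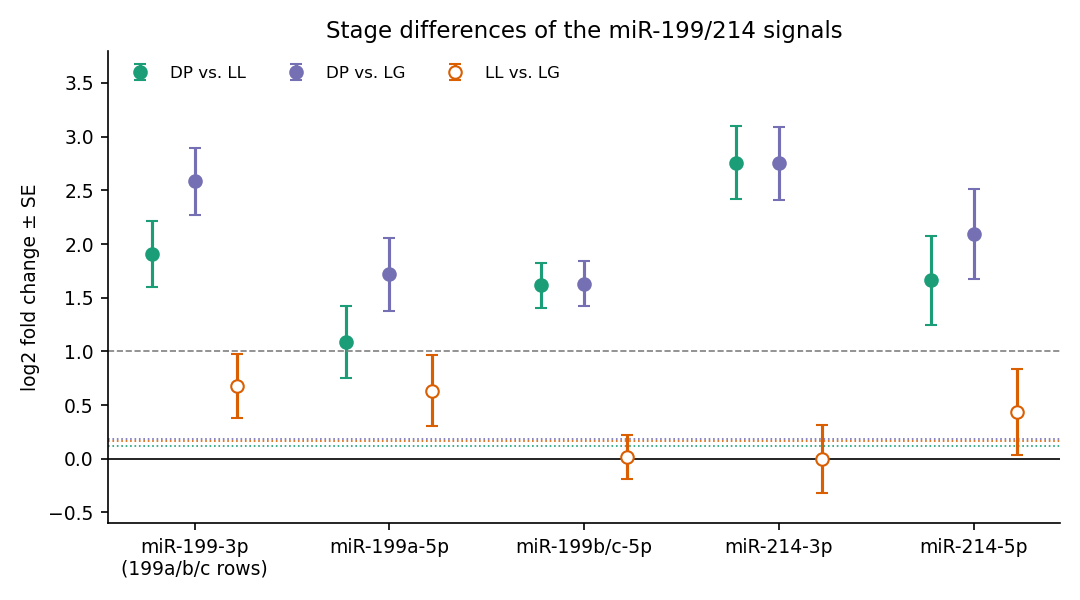
Log2 fold change of each signal in the 3 stage comparisons, with bars of 1 SE; filled symbols are DE-miRNAs, open symbols are not, dotted lines mark the median of the 696 tested miRNAs in each comparison, and the dashed line marks the fold change threshold of 1. The DP comparisons lie above the threshold for all 5 signals, from 1.09 to 2.76, and the LL vs. LG values lie between −0.00 and 0.68.

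The size of these changes depended on how libraries were scaled, and the fold changes of all miRNAs moved with it. The median log2 fold change of all tested miRNAs in DP vs. LL was 0.12 with TMM, 0.49 with library size only and −0.51 with library size only after leaving out chi-miR-148a-3p, a setting chosen after the data were seen. For DP vs. LG these medians were 0.18, −0.02 and −0.66. Relative to the median of the same setting, the DP vs. LL change of chi-miR-214-3p was 2.58 to 2.78 and that of miR-199-3p 1.74 to 1.92 over 12 settings, those that left out a library not included. Relative to it, chi-miR-199a-5p changed by 0.95 to 1.06, miR-199b/c-5p by 1.43 to 1.60 and chi-miR-214-5p by 1.51 to 1.68. In the setting chosen after the data were seen, 3 of the 5 signals were called higher in DP vs. LL (without chi-miR-199a-5p and chi-miR-214-5p) and 3 in DP vs. LG (without chi-miR-199a-5p and miR-199b/c-5p). Over all miRNAs, 30 were called higher and 170 lower of 785 in that DP vs. LL comparison, and 46 higher and 193 lower in DP vs. LG, against 105 and 81 and against 150 and 69 of 696 with TMM. In the setting chosen after the data were seen, all 5 signals had positive log2 fold changes in both comparisons, from 0.50 to 2.16 in DP vs. LL and from 0.77 to 1.86 in DP vs. LG. In the same setting, the DP and LL goats overlapped for chi-miR-199a-5p and chi-miR-214-5p, whose lowest DP goat was 0.789 and 0.919 times the highest LL goat. They did not overlap for the other 3 signals, and DP and LG overlapped for none of the 5. The shares of all tested miRNAs without overlap, 21.0% and 27.7%, hold for TMM. No such share is given for this setting, so these counts have no comparison here. With library size only, 165 of all tested miRNAs were higher and 59 lower in DP vs. LL, 116 were higher and 85 lower in DP vs. LG, and all 5 signals were called in both.

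**Figure D3:**
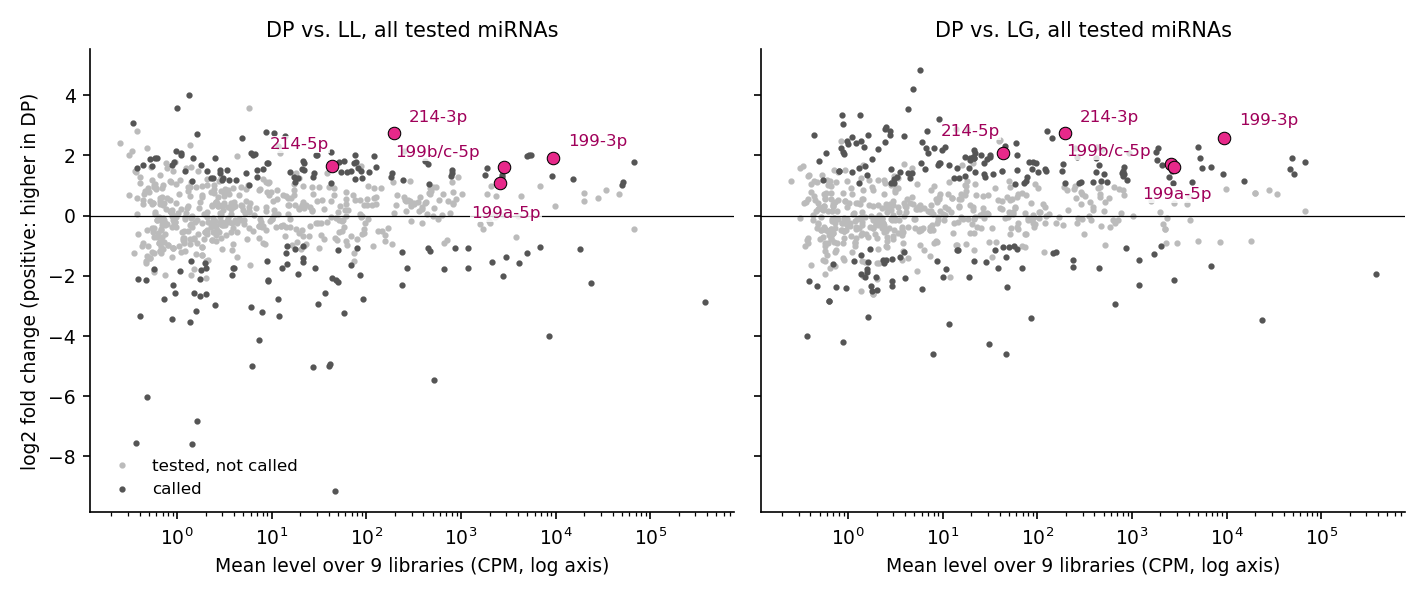
Log2 fold change (positive: higher in DP) against the mean level over the 9 libraries (CPM scaled by TMM, log axis) for the 696 tested miRNAs in DP vs. LL and DP vs. LG; light points were not called, dark points were DE-miRNAs and the outlined points are the miR-199 and miR-214 signals. The 5 signals lie on the upper side of both panels.

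Ratios between products of 1 library do not depend on the scaling, and 4 were compared between stages with an exact permutation test of the F ratio over 280 arrangements of the libraries, for which the smallest possible p is 0.00357. Their absolute size also depends on how efficiently each small RNA is captured, so that the ratios are compared between stages and not read as molar ratios. The reads of the miR-199 5p arms (miR-199a-5p and miR-199b/c-5p together) divided by those of miR-199-3p gave 0.812, 0.709 and 0.659 in LL, 0.580, 0.356 and 0.542 in DP, and 0.979, 0.954 and 0.793 in LG. The DP goats had the lowest ratios, below all goats of the other stages, and the LL and LG goats overlapped. The stages differed (exact permutation p = 0.00714, adjusted p = 0.0143 over the 4 ratios), with a difference of 0.91 on the log2 scale between the means of LG and DP.

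For miR-214, chi-miR-214-5p divided by chi-miR-214-3p gave 0.388, 0.349 and 0.439 in LL, 0.136, 0.188 and 0.226 in DP, and 0.325, 0.274 and 0.295 in LG. No stage overlapped another, and LL was highest and DP lowest, with a difference of 1.12 on the log2 scale (exact permutation p = 0.00357, the smallest possible, adjusted p = 0.0143). Both hairpin families thus had relatively more 3p reads in DP. Between a single pair of stages with 3 goats each, a two-sided exact test cannot give a p below 0.10.

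The 3p arm of miR-214 was also set against the pooled miR-199-3p reads, which come from more than the clustered hairpin. chi-miR-214-3p amounted to 1.22%, 1.25% and 1.30% of the reads of miR-199-3p for the LL goats. For the DP goats it was 2.54%, 2.32% and 2.08%, and for the LG goats 1.79%, 2.18% and 2.09%. The LL goats were below all others, while DP and LG overlapped (exact permutation p = 0.0107, adjusted p = 0.0143, difference between DP and LL 0.88 on the log2 scale). Against chi-miR-199a-5p, a denominator chosen after the data were seen and given with no test, chi-miR-214-3p amounted to 3.07%, 3.18% and 3.35% for the LL goats, to 11.5%, 14.7% and 7.28% for the DP goats and to 4.14%, 5.14% and 5.79% for the LG goats. No stage overlapped another here, so that the overlap of DP and LG depended on the denominator. The 5p arms of the miR-199 hairpins showed no difference between each other that passed the test. chi-miR-199a-5p divided by miR-199b/c-5p gave 0.962, 1.24 and 1.43 in LL, 0.617, 0.789 and 1.12 in DP, and 0.795, 0.798 and 0.834 in LG (exact permutation p = 0.0929, adjusted p = 0.0929). All LL goats were above all LG goats, by 0.56 on the log2 scale between the means, and the DP goats overlapped both.

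**Figure D4:**
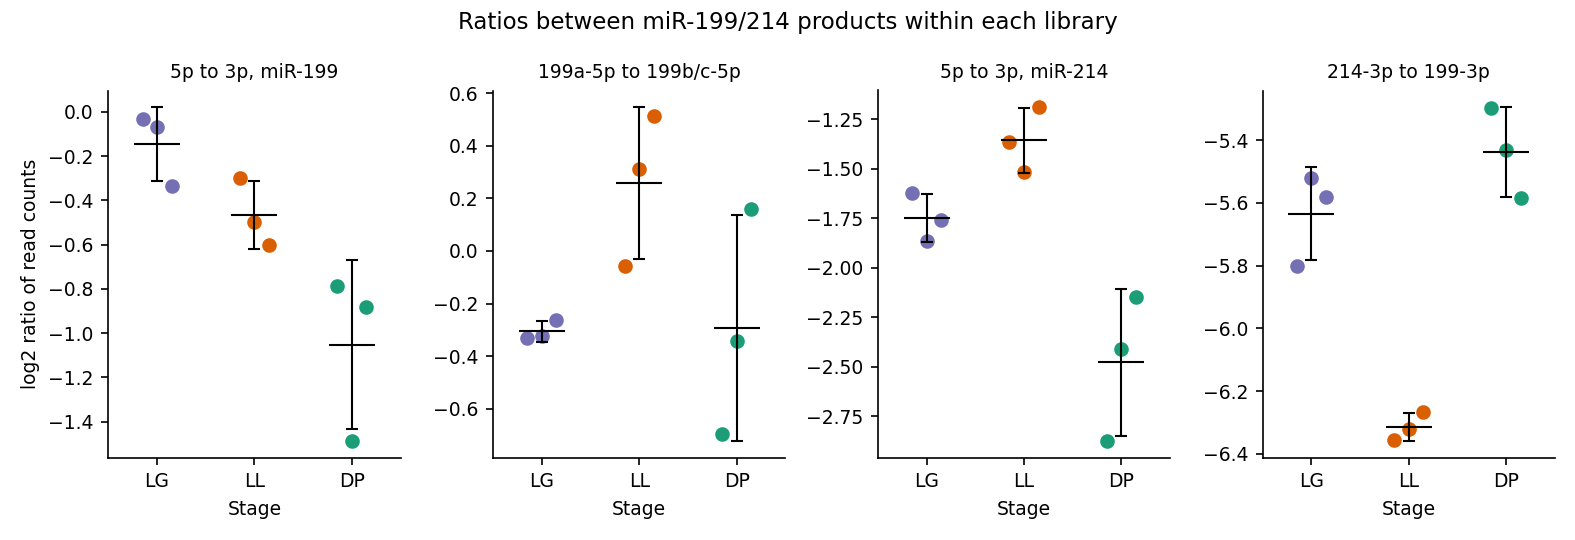
Log2 ratios of read counts within each library for the 5p to 3p arms of miR-199, miR-199a-5p to miR-199b/c-5p, the 5p to 3p arms of miR-214, and miR-214-3p to miR-199-3p; points are goats, black bars are mean and SD of 3 goats, and the axes do not start at 0. Both arm ratios are lowest in DP, and the ratio of miR-214-3p to miR-199-3p is lowest in LL.

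The arm ratios were set beside those of all 129 known hairpins with both arms tested, as a description and without a test. The median change of the log2 ratio of 5p to 3p in DP vs. LL was 0.33 over the 129 hairpins (quartiles −0.33 and 0.82). The change was −1.12 for mir-214, the 9th lowest, −0.87 for mir-199a, the 17th lowest, and −0.32 for mir-199b, the 34th lowest, with the 3p reads of the miR-199 hairpins shared as above. In DP vs. LG the median was 0.18 (quartiles −0.45 and 0.76), and mir-199b (−0.92, 9th lowest), mir-199a (−0.91, 11th lowest) and mir-214 (−0.73, 15th lowest) again lay in the lower part. As a share of the reads of the 5 signals, miR-199-3p accordingly made up 57.4% in LL, 66.1% in DP and 51.8% in LG, chi-miR-199a-5p 22.5%, 14.5% and 20.9%, and miR-199b/c-5p 19.0%, 17.7% and 25.9%. chi-miR-214-3p made up 0.722%, 1.53% and 1.05%, and chi-miR-214-5p 0.284%, 0.277% and 0.310%.

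The known miRNAs whose pattern over the 9 libraries was closest to that of a signal were found by the mean absolute difference of log2 CPM, each miRNA centred on its own mean, among 360 tested known miRNAs. For miR-199-3p these were chi-miR-125b-5p (0.19), chi-miR-193b-5p (0.25) and chi-miR-455-3p (0.32), with a median of 1.03 over the 360. The difference of miR-199-3p from the other signals was 0.23 for chi-miR-214-5p, 0.35 for chi-miR-214-3p, 0.40 for chi-miR-199a-5p and 0.40 for miR-199b/c-5p, so that chi-miR-125b-5p was closer to it than its own opposite arms. chi-miR-199a-5p was closest to chi-miR-193a (0.17), chi-miR-193b-3p (0.17) and chi-miR-21-5p (0.19), and chi-miR-214-3p to chi-miR-125b-5p (0.33), chi-miR-147-5p (0.34) and chi-miR-100-5p (0.40). chi-miR-193b-5p and chi-miR-147-5p were measured at few CPM, with 2.35 ± 0.571 and 3.75 ± 1.39 CPM in DP. The levels of chi-miR-193a and chi-miR-193b-3p were nearly equal in each library, so these are hardly separate neighbours. They had 15.4 ± 10.9 and 15.9 ± 11.5 CPM in DP and were not called in DP vs. LL (edgeR adjusted p = 0.112 and 0.108). chi-miR-125b-5p, which is abundant in mesenchymal cells, had 10178 ± 1267 CPM in DP, 2565 ± 593 CPM in LL and 2076 ± 244 CPM in LG.

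Whole tissue does not show in which cells the miR-199 and miR-214 reads arose, and in bulk samples fewer cells of a type and less RNA per cell cannot be told apart. Lists of miRNAs known from other cell types were therefore read beside the 5 signals. Of 7 tested miRNAs of a stroma list, 2 were called higher in DP than in LL, where the share over all tested miRNAs was 15.1% higher and 11.6% lower (chi-miR-100-5p and chi-miR-125b-5p, with log2 fold changes of 2.01 and 1.99) and none was lower, with a median of 0.40. Against LG, where the shares were 21.6% and 9.91%, 3 of the 7 were higher in DP, chi-miR-145-3p being the additional one (1.62). chi-miR-143-3p, the most abundant miRNA of the list and known from smooth muscle and myoepithelium, had 61297 ± 48480 CPM in DP, 82777 ± 24143 CPM in LL and 55519 ± 4790 CPM in LG and was called in neither comparison. The summed level of the list was 54538 to 160915 CPM in DP, 87434 to 133751 CPM in LL and 65626 to 74102 CPM in LG, and the DP libraries spanned those of LL. chi-miR-125b-5p (8785 to 11263 CPM in DP, 1893 to 3016 CPM in LL) and chi-miR-100-5p (5976 to 13282 against 2023 to 3267 CPM) were higher in all DP than in all LL libraries, as were the miR-199 and miR-214 signals.

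Of 6 fibrosis-linked miRNAs, read against the same shares of 15.1% and 11.6% over all tested miRNAs in DP vs. LL, chi-miR-21-5p was higher in DP than in LL (84614 ± 30533 against 41686 ± 11814 CPM, log2 fold change 1.02, adjusted p = 0.0257), and the other 5 were not called. Against LG, 4 of the 6 were higher in DP, beside 21.6% over all, chi-miR-21-5p (1.90) and the 3p arms of chi-miR-29a, chi-miR-29b and chi-miR-29c, which are known to repress collagens (2.24, 2.59 and 2.02). Of 8 tested epithelial miRNAs, 5 were lower in DP than in LL, beside 11.6% over all, all of the miR-200 family, which is known to maintain the epithelial state (chi-miR-141, chi-miR-200a, chi-miR-200b, chi-miR-200c and chi-miR-429, with log2 fold changes from −1.23 to −1.02), and chi-miR-183 was higher (1.18). With library size only, none of the 8 was called lower in DP vs. LL and 5 in DP vs. LG, beside 8.48% and 12.2% over all. With chi-miR-148a-3p left out as well, 5 of the 8 were called lower in both, beside 21.7% and 24.6% over all. The summed level of this list was 14061 to 22387 CPM in DP, 35327 to 43021 CPM in LL and 34934 to 38645 CPM in LG, without overlap between DP and the other stages.

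Against LG, 3 of the 8 epithelial miRNAs were lower in DP, beside 9.91% over all (chi-miR-141, chi-miR-200a and chi-miR-429, from −1.73 to −1.48). Among the other lists, 4 of 4 tested immune cell miRNAs were higher in DP than in LG, and 1 of 4 (chi-miR-150) than in LL, beside the same 21.6% and 15.1% over all tested miRNAs. Of 5 muscle miRNAs, chi-miR-206 was higher in DP than in LL, and chi-miR-206 and chi-miR-1 than in LG. Of 2 endothelial miRNAs, chi-miR-126-5p was higher in DP than in LG (1.08) and was not called against LL (0.52), and of 3 blood miRNAs chi-miR-451-5p was higher in DP than in LG. The summed levels in DP, LL and LG were 1244 to 2398, 893 to 1265 and 406 to 637 CPM for the immune list, 971 to 3445, 720 to 932 and 419 to 530 CPM for muscle, 19030 to 31977, 15854 to 22982 and 14717 to 16364 CPM for endothelium, and 122 to 1284, 365 to 551 and 87.1 to 168 CPM for blood. In the scaling chosen after the data were seen, in which fewer miRNAs of all kinds were called higher in DP than in LG (46 of 785), the count was 1 of 7 for stroma, 1 of 4 for immune cells, 4 of 6 for the fibrosis-linked list and 0 for muscle, blood and endothelium. In DP vs. LL of that scaling, 30 of 785 were called higher and 170 lower. There, 2 of 7 stroma miRNAs were higher and 1 lower, and 1 of 4 immune cell miRNAs was higher and 1 lower. Of 5 muscle miRNAs 1 was higher, and 0 of 6 fibrosis-linked miRNAs were called, so that the call of chi-miR-21-5p was lost. With library size only, 23.7% of all tested miRNAs were called higher in DP vs. LL. In that setting, 3 of 6 fibrosis-linked, 2 of 7 stroma, 2 of 4 immune cell and 2 of 5 muscle miRNAs were higher. The part of these cell types in the miR-199 and miR-214 differences was not tested.

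**Figure D5:**
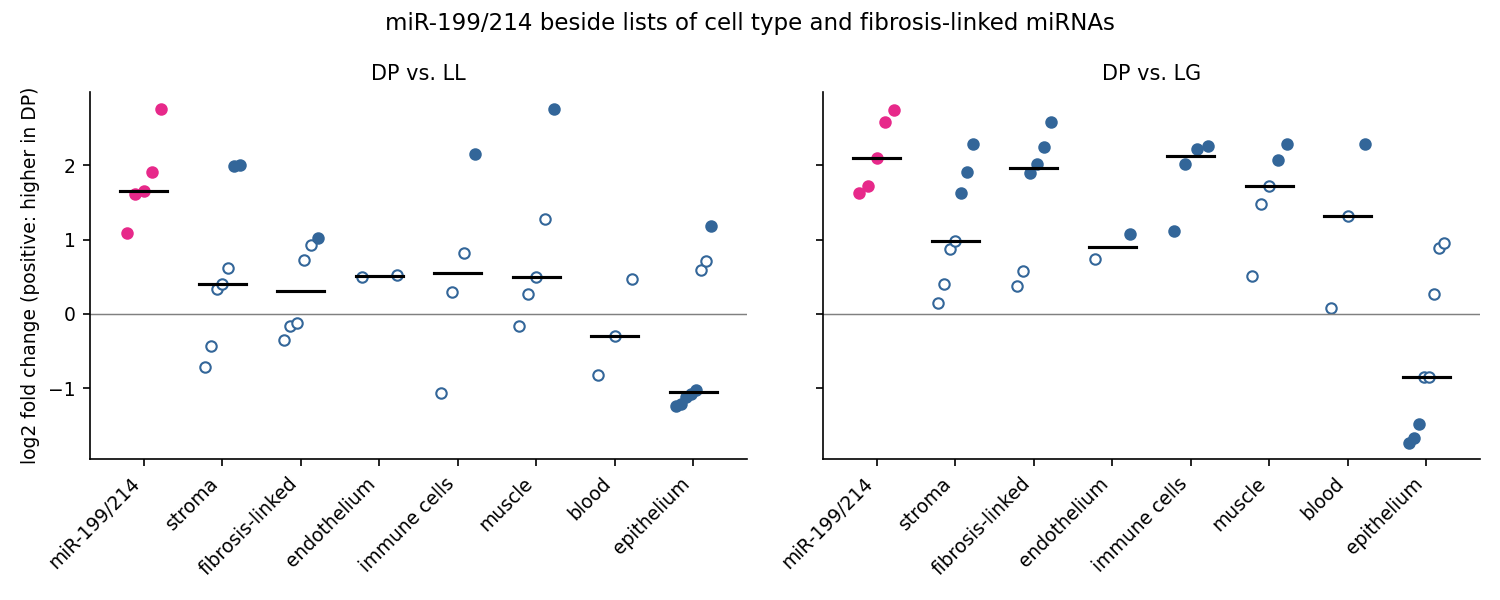
Log2 fold change (positive: higher in DP) of each tested member of the miR-199 and miR-214 signals and of 7 lists of cell type and fibrosis-linked miRNAs, in DP vs. LL and DP vs. LG; filled points are DE-miRNAs, open points are not, and black bars are list medians. The 5 miR-199 and miR-214 signals are called higher in both panels, with medians of 1.66 and 2.10, whereas the stroma list (medians 0.40 and 0.98) holds called and uncalled members and the epithelium list has medians of −1.05 and −0.85.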

How the data were processed

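The authors trimmed the reads, mapped them with miRDeep2 to ARS1.2 and counted them per mature miRNA with its quantifier, and these counts were deposited without normalization. The submitters' processing notes also name FastQC 0.11.9, cutadapt 4.2 and Bowtie 1.1.1. The column of LL replicate 3 was deposited with estimated counts, of which 2 were not whole and were rounded. Libraries of the same stage differed by more than sampling noise. The authors' FPKM filter and RUVSeq step were not applied.

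The test used edgeR 4.0.16 in R 4.3.3 (TMM, glmQLFit, glmQLFTest), fitted to the 9 libraries with stage as the term, on the 696 miRNAs that reached 0.5 CPM in 3 or more libraries, with Benjamini-Hochberg adjustment over them. SE is the absolute log2 fold change divided by the square root of F. Ratios were taken from counts, with 0.5 added for the 129 hairpins. The scripts were tested on simulated data. Alternatives were limma-voom (limma 3.58.1), DESeq2 1.42.0, other scalings and filters, fits of 2 stages, a replicate block and leaving out libraries. Named miRNAs are all rows of the rule, the 3 closest in pattern to chi-miR-199a-3p, chi-miR-199a-5p and chi-miR-214-3p, and listed markers. These members and lists were chosen with earlier results of these data known. Other stages were not analysed here.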

Additional observations from a re-analysis of the deposited data

How the results depend on the processing

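Of the log2 fold changes of the 5 signals under alternatives that kept all libraries, 52 of 55 in DP vs. LL and 53 of 55 in DP vs. LG kept direction and call. The exceptions are the fit of 2 stages (chi-miR-199a-5p, given above) and scaling by library size after removing chi-miR-148a-3p, which was chosen after the data were seen. In the latter, the count of called signals was 3 in DP vs. LL, where chi-miR-199a-5p had 0.50 (adjusted p = 0.232) and chi-miR-214-5p 1.06 (adjusted p = 0.0523), and 3 in DP vs. LG, where chi-miR-199a-5p had 0.84 (adjusted p = 0.0554) and miR-199b/c-5p 0.77 (adjusted p = 0.0170, under the fold change threshold). With each library left out in turn, the count ranged from 3 to 5 in DP vs. LL, was 5 in DP vs. LG and 0 in LL vs. LG.

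In LL vs. LG, where nothing was called, miR-199b/c-5p (either row) was at −0.17 with DESeq2, −0.12 with upper quartile scaling, −0.57 with library size only, −0.22 when TMM was run without chi-miR-148a-3p, −0.30 without a filter, −0.25 with at least 10 counts in every library, −0.22 with only the stages compared, −0.0021 with the replicate block, −0.19 with equal rows kept once and −0.26 in the setting chosen later. With limma-voom it was 0.0055. Without single libraries it ranged from −0.27 to −0.055, chi-miR-214-3p from −0.50 to 0.015 and chi-miR-214-5p from −0.19 to 0.46, the last at −0.17 with library size only. The median of all miRNAs moved with these settings, and relative to it miR-199b/c-5p was at −0.19 to −0.15 in all 12 settings that kept all libraries.

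Goats of different stages with the same replicate number are different animals, and their deviations correlated by −0.10 to 0.21, so the numbers do not pair the samples. The replicate block changed no call of the 5 signals. For the ratios, permuting within replicate numbers leaves 36 arrangements (smallest p 0.0278, exact). It does not alter the observed differences between stages, which are 0.91 for the miR-199 arms, 1.12 for the miR-214 arms and 0.88 for chi-miR-214-3p to miR-199-3p. The adjusted exact p of these ratios was then 0.0556, 0.0556 and 0.0741. Leaving out libraries gave differences of 0.69 to 1.04, 0.92 to 1.29 and 0.81 to 0.95 for these. For chi-miR-199a-5p to miR-199b/c-5p, the difference between LL and LG was 0.43 to 0.72. Leaving out DP replicate 3 could not change that difference (0.56), and the test over all stages then gave an adjusted exact p of 0.0357.

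The share of a library held by the 5 signals was 1.56% in LL, 3.38% in DP and 1.34% in LG without chi-miR-148a-3p in the total, and 1.71%, 7.62% and 1.77% in LL, DP and LG with all 8 rows summed, which counts shared reads repeatedly. Without single libraries it was 0.626% to 0.863% in LL, 2.76% to 3.29% in DP and 0.735% to 0.808% in LG. With 3 goats per stage, the LL vs. LG values say little about small differences.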
